A study of Homo sapiens with 6 samples.

Results

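The ID genes (ID1, ID2, ID3 and ID4) and the E-protein genes (TCF3, TCF4 and TCF12) were examined in RNA-seq of the established human line MDA-MB-231, which was derived from a basal, triple-negative breast tumour. Their rows were found by gene symbol: each of the 7 genes had 1 row of its own among the 24108 rows of the deposited FPKM table (fragments per kilobase of transcript, scaled to library size, a level corrected for transcript length). The 3 shControl samples were transduced with an LKO lentiviral hairpin against luciferase, which has no target in human cells, and the 3 shZnf148 samples with a hairpin against ZNF148. All 6 samples were transduced for 48 h and then selected for 24 h in 0.5 µg/ml puromycin, so both groups carried virus and drug. With 1 hairpin against ZNF148 and 1 control hairpin, an effect of the hairpin itself and loss of ZNF148 cannot be told apart. The 7 genes were chosen with values of this comparison already known, since the study picked ID3 partly by its change in this comparison. Their values are therefore given as a description, with standard errors and without p-values.

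E proteins are transcription factors of the basic helix-loop-helix (bHLH) family that bind the E-box as pairs, either with each other or with tissue-specific partners such as MYOD1. TCF3 encodes the splice forms E12 and E47, TCF12 encodes HEB and TCF4 encodes E2-2. The E-protein TCF4 is a different gene from the Wnt pathway factor TCF7L2, which is often called by the same name. ID proteins have the helix-loop-helix but lack the basic region that contacts DNA, so that an E protein paired with an ID protein cannot bind its site. ID genes are classic early targets of BMP signalling through SMAD1, SMAD5 and SMAD9, they are usually high in stem and progenitor cells, and ID1 and ID3 are known for their part in the self-renewal and spread of breast cancer cells.

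Because ID1, ID2 and ID3 were all higher in the same 3 samples, the 250 bases before their RefSeq transcription starts are shown with those of TCF3, the most abundant E-protein gene, for contrast. Capitals mark 3 words searched on both strands: the E-box CANNTG, the GC-box word CCCGCC, of the GC-rich kind that ZNF148 and the SP factors are known to bind, and the CCAAT box. A match on the opposite strand shows as its reverse complement. Sequences run 5′ to 3′ on the strand of the gene, on GRCh38.p14.
ID1, chr20:31605039-31605288, plus strand: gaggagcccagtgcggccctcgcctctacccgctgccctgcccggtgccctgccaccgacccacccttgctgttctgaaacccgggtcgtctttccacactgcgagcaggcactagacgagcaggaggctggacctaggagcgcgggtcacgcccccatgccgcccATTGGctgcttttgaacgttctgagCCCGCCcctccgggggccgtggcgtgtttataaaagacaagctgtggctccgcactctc
ID2, chr2:8681806-8682055, plus strand: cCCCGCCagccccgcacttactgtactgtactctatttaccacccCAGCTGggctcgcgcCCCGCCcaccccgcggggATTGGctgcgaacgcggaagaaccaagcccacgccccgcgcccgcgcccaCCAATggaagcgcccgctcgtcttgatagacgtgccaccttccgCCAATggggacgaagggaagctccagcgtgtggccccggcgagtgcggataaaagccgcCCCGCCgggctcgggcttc
ID3, chr1:23559502-23559751, minus strand: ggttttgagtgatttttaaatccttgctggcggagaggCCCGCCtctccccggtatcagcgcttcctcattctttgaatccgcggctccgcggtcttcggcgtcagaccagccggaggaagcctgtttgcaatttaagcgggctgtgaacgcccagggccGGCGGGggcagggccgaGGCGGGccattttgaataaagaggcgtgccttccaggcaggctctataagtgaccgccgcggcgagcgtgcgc
TCF3, chr19:1652616-1652865, minus strand: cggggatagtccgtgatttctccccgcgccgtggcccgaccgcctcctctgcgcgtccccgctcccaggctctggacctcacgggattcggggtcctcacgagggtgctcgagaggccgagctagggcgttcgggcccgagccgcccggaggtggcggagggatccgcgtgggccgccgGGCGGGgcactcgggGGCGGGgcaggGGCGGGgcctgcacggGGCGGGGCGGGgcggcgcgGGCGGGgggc

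The windows of ID1, ID3 and TCF3 held 0 E-boxes, and that of ID2 held 1. An E-box occurs in 61.8% of the 35114 windows of this length in the RefSeq promoter table. The GC-box word occurred 1 time before ID1, 3 times before ID2, 3 times before ID3 and 6 times before TCF3, where 2 of the matches share a base, and 42.5% of all windows hold it. The word therefore did not set the ID genes apart from TCF3. CCAAT occurred 1 time before ID1 and 3 times before ID2 but 0 times before ID3 and TCF3, against 32.0% of all windows with at least 1. Searched in the same way, the C-rich word CCCTCCC (24.7% of all windows) and GGCGCC, a GC-rich word bound by BMP-responsive SMADs (16.4%), were in none of the 4 windows. No match of one word overlapped a match of another. The windows were 66.0%, 69.2%, 62.0% and 79.6% G or C for ID1, ID2, ID3 and TCF3, against a median of 58.0%. Only these letters in this stretch were searched.

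The hairpin's listed target in ZNF148, 21 bases long, was also compared with the transcripts of the members, because a hairpin can act on other transcripts through bases 2 to 8 of its guide strand. The capitals mark the 7 bases of the target that pair with those guide bases.
shZNF148 target: cccttggtgaatgTAAATGAt
Among the canonical GENCODE release 44 transcripts of the members, ID1, ID3 and TCF3 held the word TAAATGA 0 times, ID2 and ID4 each held it 1 time, TCF4 2 times and TCF12 3 times. Of 10664 tested genes with a canonical transcript, 27.8% held the word at least 1 time, and the whole target was found in 1 of them, ZNF148.

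All 6 libraries carried the markers of MDA-MB-231. VIM, CD44 and AXL each lay between 275.7 and 1842 FPKM, while ESR1 was listed at 0 and PGR was at most 0.0830 FPKM. Markers of leukocytes (PTPRC and CD3E) and of endothelial cells (PECAM1 and CDH5) were at most 0.131 FPKM. Of 2 epithelial markers, CDH1 was at most 0.491 FPKM and EPCAM at most 11.1 FPKM, and the fibroblast gene COL1A1 was between 3.19 and 6.62 FPKM. CD44 and AXL passed limma's adjusted p at under 1.5-fold and were lower in shZnf148 (-0.46, adjusted p = 0.0185, and -0.29, adjusted p = 0.0364, on the log2 scale), and their part in the results was not tested. With 1 library left out, these adjusted p-values reached 0.0949 and 0.114. In bulk RNA, fewer cells of a kind and less RNA per cell cannot be told apart. The summed FPKM lay between 469594 and 507312. The number of reads is unknown, but steps between low values put the depth of the libraries between 0.806 and 1.13 of that of shControl replicate 1, with shZnf148 replicate 3 the shallowest. ZNF148 itself was 3.72, 4.36 and 4.30 FPKM in the shControl replicates in order, and 0.914, 0.282 and 0.834 FPKM in the 3 shZnf148 replicates.

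In the control cells, ID1 was the most abundant of the 7 genes, on chromosome 20 of GRCh38 from 31605283 to 31606515 (plus strand, GENCODE release 44). Its level was 102, 84.1 and 106 FPKM in shControl replicates 1, 2 and 3. In shZnf148 replicates 1, 2 and 3 it was 155, 197 and 141 FPKM. Every shZnf148 sample lay above every shControl sample, and replicate 2 was the highest of its group. The shControl mean of 97.3 ± 11.6 FPKM (SD, n = 3) compared with 164 ± 29.1 FPKM in shZnf148 (SD, n = 3), a ratio of 1.69. On the log2(FPKM + 1) scale, which understates the change of genes at a few FPKM, ID1 was higher by 0.74 (standard error 0.14).

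ID3, the closest relative of ID1 and known to act redundantly with it, lies on chromosome 1 from 23557926 to 23559501 (minus strand). ID3 stood at 39.7, 37.6 and 44.8 FPKM in shControl replicates 1, 2 and 3. The knockdown libraries held 70.2, 97.8 and 59.3 FPKM in the same order of replicates. The groups did not overlap here either, and replicate 2 was again the highest. The ratio of the means was 1.86 and the log2 difference 0.85 (standard error 0.18). ID1 stayed ahead of ID3 in every library. The ratio of ID1 to ID3 was 2.39 ± 0.164 in shControl and 2.20 ± 0.183 in shZnf148 (SD, n = 3 each), and the ranges of the 2 groups overlapped.

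ID2, which besides E proteins is known to bind the retinoblastoma protein, lies on chromosome 2 from 8678845 to 8684461 (plus strand). Its level was 0.966, 0.887 and 1.10 FPKM in shControl replicates 1, 2 and 3. It was 3.17, 5.36 and 3.12 FPKM in shZnf148 replicates 1, 2 and 3. ID2 thus had the largest ratio of means among the members, 3.94, at the lowest level of the tested ones. The shControl mean, 0.985 ± 0.109 FPKM (SD, n = 3), lay under the filter of a mean of 1 FPKM, which ID2 passed only through shZnf148. Its log2 difference of 1.27 (standard error 0.19) depends on the pseudocount and was 1.83 with 0.1 FPKM and 0.56 with 5 FPKM, where it was no longer called. The row of ID2B, a pseudogene copy of ID2 that could share its reads, was at most 0.207 FPKM.

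ID4, on chromosome 6 from 19837370 to 19842197 (plus strand), was listed at 0 in all 3 shControl samples. In shZnf148 it was listed at 0.0270 and 0.273 FPKM in replicates 1 and 2 and at 0 in replicate 3. ID4 was not tested, and the low level allows no fold. The sample with the highest value was again shZnf148 replicate 2.

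**Figure D1:**
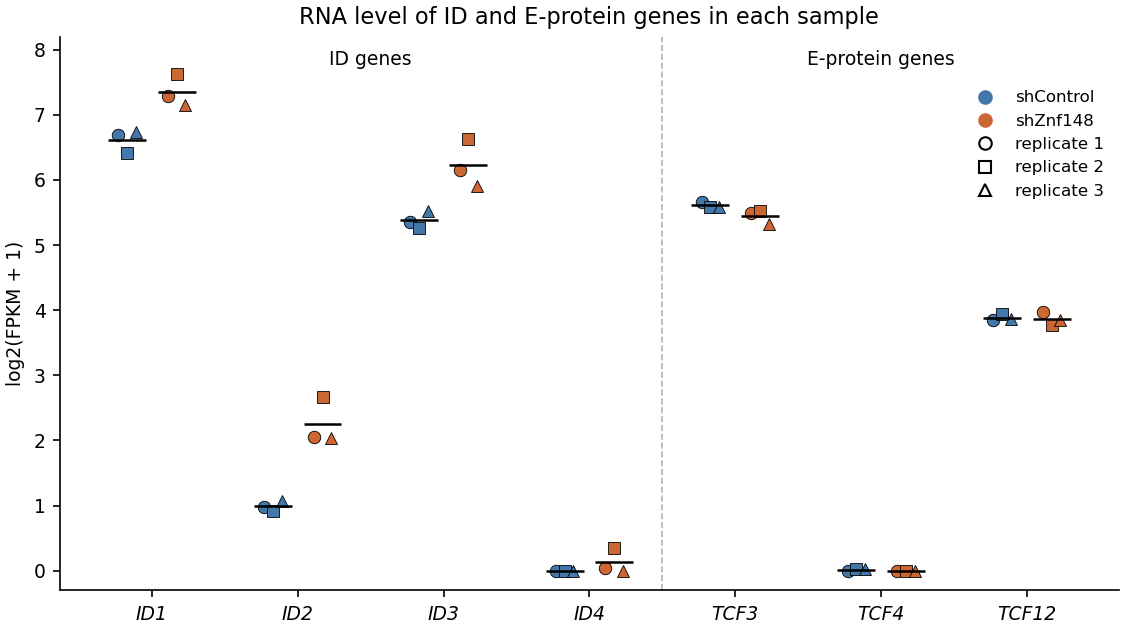
Level of each ID and E-protein gene as log2(FPKM + 1) on the vertical axis, with 1 point per sample (blue, shControl; orange, shZnf148; the marker shape gives the replicate) and a bar at the mean of 3. All orange points lie above all blue points for ID1, ID2 and ID3, TCF3 shows a small shift the other way, TCF12 overlaps, and ID4 and TCF4 sit at or near 0.

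TCF3, on chromosome 19 from 1609291 to 1652615 (minus strand), was the main E-protein gene of these cells. It was 49.9, 47.0 and 47.2 FPKM in the control libraries and 44.0, 45.1 and 39.2 FPKM in the knockdown libraries, in replicate order. All shZnf148 values were below all shControl values, but the difference was small, at 48.0 ± 1.61 against 42.8 ± 3.14 FPKM (SD, n = 3 each) and -0.17 on the log2 scale (standard error 0.07). The lowest value was in shZnf148 replicate 3, the shallowest library.

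TCF12, on chromosome 15 from 56918623 to 57299281 (plus strand), was 13.4, 14.4 and 13.6 FPKM in shControl and 14.6, 12.6 and 13.4 FPKM in shZnf148 replicates 1, 2 and 3. The groups overlapped, with a log2 difference of -0.02 (standard error 0.08). TCF4, on chromosome 18 from 55222185 to 55664787 (minus strand), was listed at 0 in 4 samples and at 0.0144 and 0.0149 FPKM in shControl replicates 2 and 3. These 2 values differed by a factor of 1.04, as did the depths of the 2 libraries, which is what equal fragment numbers in both would give. TCF4 was not tested. The measured E-protein RNA was therefore almost all TCF3 and TCF12.

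Of the 7 genes, 5 passed the filter on low values. Among these, limma called ID1, ID2 and ID3 higher in shZnf148 (adjusted p under 0.05 over all 11777 rows and a change of more than 1.5-fold), a call made for 1.83% of all tested rows, and called none lower (3.66% of all rows). The values of shZnf148 were all above those of shControl for these 3 genes and for 20.0% of all tested rows, and all below for TCF3 and for 21.0% of all rows. Since the members were chosen with this comparison known, nothing is read from these counts. The calls also changed with the libraries used, as did those over all rows. Over all rows, 216 were called higher, and 3, 59 and 3 without shControl replicates 1, 2 and 3 in turn. Left out in turn, shControl replicates 1, 2 and 3 each reduced the members called to 0, and leaving out shZnf148 replicate 1 left 1, while all 3 were called without shZnf148 replicate 2 or replicate 3. The log2 differences moved less, between 0.61 and 0.84 for ID1, between 1.06 and 1.38 for ID2 and between 0.66 and 1.01 for ID3, with the lowest value of each found without shZnf148 replicate 2.

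By mean FPKM in shControl, ID1 ranked above 92.6% of all tested rows, TCF3 above 83.8%, ID3 above 80.8%, TCF12 above 53.2% and ID2 above 1.31%. The order of the genes differed between the groups at 1 place. In shControl the order was ID1, TCF3, ID3, TCF12 and ID2, and the ranges of neighbours did not overlap. In shZnf148 it was ID1, ID3, TCF3, TCF12 and ID2, again without overlap. The ratio of ID3 to TCF3 was 0.797, 0.800 and 0.950 in the shControl libraries and 1.59, 2.17 and 1.51 in the shZnf148 libraries, in replicate order. ID3 was thus below TCF3 in each control library and above it in each knockdown library. ID1 exceeded TCF3 in all 6 libraries, with a ratio of 2.03 ± 0.229 in shControl and 3.83 ± 0.468 in shZnf148 (SD, n = 3 each).

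The balance of the families was taken as the summed FPKM of the 4 ID genes divided by the summed FPKM of the 3 E-protein genes. A ratio within a library does not depend on how libraries were scaled to each other. In replicate order, the ID sum was 143, 123 and 152 FPKM with the control hairpin and 228, 300.3 and 203 FPKM with the ZNF148 hairpin. The E-protein sum was 63.2, 61.4 and 60.7 FPKM in shControl and 58.6, 57.7 and 52.6 FPKM in shZnf148 replicates 1, 2 and 3. By these sums, ID transcripts already exceeded E-protein transcripts in each control library. The ratio was 2.25, 2.00 and 2.50 in the 3 control libraries and 3.89, 5.20 and 3.87 in the 3 knockdown libraries, in replicate order. The groups did not overlap, and the means were 2.25 ± 0.251 and 4.32 ± 0.763 (SD, n = 3 each), a ratio of 1.92.

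On the log2 scale the ratio was higher by 0.93 in shZnf148, of which the ID sum contributed 0.80 and the lower E-protein sum the rest, its own difference being -0.14. The sums weight the abundant genes. With the geometric means of FPKM + 1 over the members of each family, ID4 and TCF4 included, the mean ratio was 1.05 in shControl and 1.88 in shZnf148. It ranged from 0.977 to 1.13 over the control libraries and from 1.64 to 2.33 over the knockdown libraries. These are transcript ratios, and protein was not measured in these files.

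The make-up of each family moved little. ID1 was 69.9% ± 1.42 of the ID sum in shControl and 67.6% ± 1.90 in shZnf148 (SD, n = 3 each), and ID3 was 29.4% ± 1.40 and 30.8% ± 1.72. Both sets of ranges overlapped. ID2 was 0.709% ± 0.0272 in shControl and 1.57% ± 0.202 in shZnf148, without overlap, and so remained a small part of the sum. TCF3 was 77.7% ± 1.14 of the E-protein sum in shControl and 75.9% ± 1.93 in shZnf148, with overlapping ranges.

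The 3 ID genes also shared the order of the shZnf148 libraries, with replicate 2 highest, then replicate 1 and then replicate 3, an order found in 23.4% of all tested rows. ID1, ID2 and ID3 in replicate 2 were 1.33, 1.71 and 1.51 times the mean of replicates 1 and 3. ZNF148 was lowest in that replicate, at 0.282 FPKM, against 0.914 and 0.834 FPKM in replicates 1 and 3. Of the 15 tested genes of a list of BMP and SMAD genes, 6 had the order 2, 1, 3, among them BMP4 and SMAD6, which were called higher. FST, which was called lower, did not, at 1.04, 1.66 and 2.41 FPKM in shZnf148 replicates 1, 2 and 3. Replicate 2 was the highest for 7 of the 15 and the lowest for 4. The part of this library in the results was not tested beyond leaving it out.

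For each tested member, the 3 other rows with the most similar profile were taken, among rows of at least 5 FPKM, by the root mean square difference of log2(FPKM + 1) after subtracting the shControl mean, over 6 samples. For ID1 they included DOK3 (0.0761) and GBP3 (0.0801). For ID3 they included DUSP10 (0.0822) and FAT4 (0.0932), and for ID2 they were HIST1H2BK (0.126), TIMP3 (0.139) and TRIB2 (0.145). Between ID1 and ID3 the difference was 0.118, so each had closer rows than the other. For TCF3 the nearest were SUMF2 (0.0158), SERGEF (0.0223) and OTUD5 (0.0251), and for TCF12 they were MAT2A (0.0150), USP14 (0.0208) and KIF3B (0.0212). The smaller differences go with the smaller changes of the E-protein genes.

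Genes that act with or around the 2 families were described from 7 lists with 121 symbols, of which 120 were found and 54 rows tested. limma called 2 of these higher (3.70%, against 1.83% of all tested rows) and 5 lower (9.26%, against 3.66%), 1 of the latter being ZNF148 itself. These counts are small, and nothing particular to a list is read from them. The median log2 fold change of the 54 rows was 0.01, as over all rows. Adjusted p-values below are from limma with Benjamini-Hochberg adjustment over all 11777 rows. These calls, too, changed when single libraries were left out, as did those over all rows. Over all rows, 431 were called lower, and 26, 142 and 19 without shControl replicates 1, 2 and 3 in turn. With 1 library left out, the log2 fold change stayed between 1.31 and 1.86 for BMP4 and between -0.82 and -0.66 for BHLHE40. Without shControl replicate 1 or replicate 3 there were 0 calls, without shControl replicate 2 or shZnf148 replicate 1 there were 0 higher and 2 lower, without shZnf148 replicate 2 there were 1 higher and 6 lower, and without shZnf148 replicate 3 the counts were again 2 and 5. In that last fit ATF3 and HES4 were not called and RGMB was called lower, so the 5 rows were not the same ones. Of the 6 fits with 1 library left out, BMP4 lost its call in 4 and BHLHE40 in 3, while SMAD6, FST, ATF3 and HES4 lost theirs in 5 and also with no filter on low values. The calls of FST, ATF3 and HES4 were lost with a pseudocount of 5 FPKM as well, and those of SMAD6, ATF3 and HES4 with a replicate block. Between pseudocounts of 5 FPKM and 0.1 FPKM, the log2 fold change of SMAD6 went from 0.62 to 1.66, that of FST from -0.42 to -1.23, that of HES4 from -0.40 to -0.91, that of ATF3 from -0.35 to -0.75 and that of ZNF148 from -0.69 to -2.57.

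Upstream of the ID genes, 26 BMP and SMAD genes were found and 15 tested, with 2 called higher and 1 lower. BMP4, a ligand that activates this pathway, was 23.4, 23.1 and 26.9 FPKM in shControl and 68.2, 122 and 56.0 FPKM in shZnf148 replicates 1, 2 and 3 (log2 fold change 1.63, standard error 0.27, adjusted p = 0.0198). SMAD6, an inhibitory SMAD that is itself a target of BMP signalling, was 1.58, 1.21 and 1.39 FPKM in shControl and 5.50, 6.86 and 2.56 FPKM in shZnf148 (1.25, adjusted p = 0.0378). FST, a secreted protein that binds activins and BMPs, fell from 3.92 ± 0.471 to 1.70 ± 0.687 FPKM (SD, n = 3 each; -0.89, adjusted p = 0.0356). NOG, a BMP antagonist, was at 31.9 ± 4.34 and 25.2 ± 3.79 FPKM (SD, n = 3 each; -0.33, adjusted p = 0.149), and the groups overlapped. RGMB, a BMP co-receptor named here after its values were seen, was at 19.3 ± 0.810 and 12.5 ± 0.296 FPKM (SD, n = 3 each). On the log2(FPKM + 1) scale it was lower by 0.58 (adjusted p = 0.0103), just short of 1.5-fold. It was called lower under 5 of 15 alternatives, among them a pseudocount of 0.1 FPKM (-0.62). The signal-transducing SMAD5, SMAD1 and SMAD9, and also SMAD7 and BAMBI, were named after their values were seen. SMAD5 was at 18.4 ± 1.36 and 18.7 ± 3.01 FPKM (SD, n = 3 each; adjusted p = 0.954). SMAD1 averaged 3.05 FPKM in shControl and 1.89 FPKM in shZnf148, without overlap (-0.49, adjusted p = 0.0684). SMAD9 was not tested and averaged 0.795 and 0.529 FPKM, also without overlap. SMAD7 (0.50, adjusted p = 0.0786) and BAMBI (0.57, adjusted p = 0.0656) were higher in shZnf148, again without overlap. SMAD5, SMAD1, SMAD7 and BAMBI were not called, though SMAD1 was called lower in 1 of the fits with 1 library left out. BMP2 and BMP7 were listed at 0 in every sample.

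Of 10 other known regulators of ID transcription, 8 were tested, with 0 called higher and 2 lower, ZNF148 (-1.63, adjusted p = 0.0099) and ATF3. ATF3, a stress-induced factor that can repress ID1 together with SMAD3, fell from 5.60 ± 0.877 to 3.30 ± 0.663 FPKM (SD, n = 3 each; -0.62, adjusted p = 0.0441). MYC and EGR1 passed the adjusted p but not 1.5-fold. MYC was 85.8 ± 6.72 and 68.9 ± 2.93 FPKM (SD, n = 3 each; -0.31, adjusted p = 0.0431). Over 15 alternatives its adjusted p lay between 0.0412 and 0.138. EGR1, named after its values were seen, was at 5.91 ± 0.728 and 3.76 ± 0.599 FPKM (SD, n = 3 each). On the log2(FPKM + 1) scale it was lower by 0.54 (adjusted p = 0.0447). It was called lower under 2 of 14 alternatives, among them a pseudocount of 0.1 FPKM (-0.64), and its adjusted p lay between 0.0419 and 0.148. YY1 did not pass (0.08, adjusted p = 0.375).

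The tissue-specific bHLH partners of E proteins were nearly silent. Of 37 found, 23 were listed at 0 in all 6 samples and 12 more were at most 1.11 FPKM in any sample. The 2 tested rows were LYL1, at 2.81 ± 0.919 and 3.73 ± 0.447 FPKM (adjusted p = 0.250), and MESP1, at 3.07 ± 0.537 and 2.64 ± 0.663 FPKM (adjusted p = 0.525; SD, n = 3 each). Among 9 cofactors of E proteins 6 were tested and 0 called. LDB1 and the joined row of EP300 and MIR1281 were the most abundant, with log2 fold changes of 0.18 (adjusted p = 0.188) and 0.26 (adjusted p = 0.115).

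Of 15 genes for the turnover or other partners of ID proteins, 13 were tested and 0 were called. CAV1 (-0.12, adjusted p = 0.400) and SMURF2, a ubiquitin ligase of ID1 and ID3 (0.10, adjusted p = 0.295), were the most abundant. Passing the adjusted p at under 1.5-fold were RB1 (0.31, adjusted p = 0.0258), RBL2 (-0.35, adjusted p = 0.0218) and ELK3 (-0.31, adjusted p = 0.0424), named after their values were seen. Under the 15 alternatives these adjusted p-values reached 0.102 for RB1, 0.0981 for RBL2 and 0.129 for ELK3. RBL1, of the same family as RB1 and RBL2 and also named after its values were seen, was at 11.6 ± 0.849 and 16.2 ± 2.49 FPKM (SD, n = 3 each; 0.44, adjusted p = 0.0589).

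Among 12 genes known to be under ID or E-protein control, 4 were tested and 0 called. THBS1, which ID1 is known to repress, was 409 ± 33.4 FPKM in shControl and 348 ± 2.35 FPKM in shZnf148 (SD, n = 3 each; -0.23, adjusted p = 0.0786). CDKN1A, the cell cycle inhibitor p21 that E proteins activate, was 95.8 ± 2.93 and 92.1 ± 21.9 FPKM (SD, n = 3 each; -0.08, adjusted p = 0.741). Its values in shZnf148 replicates 1, 2 and 3 were 79.0, 117 and 80.0 FPKM. Without shZnf148 replicate 2 it was lower by 0.27 and passed limma's adjusted p (0.0277) at under 1.5-fold. CDKN1C, named after its values were seen, was at 1.64 ± 0.312 and 0.752 ± 0.0315 FPKM (SD, n = 3 each). On the log2(FPKM + 1) scale it was lower by 0.58 (adjusted p = 0.0400), just short of 1.5-fold. At this low level the result depends on the pseudocount. With 0.1 FPKM the log2 fold change was -1.01 and CDKN1C was called lower, and with 5 FPKM it was -0.21. CDKN2A and CDKN2B were listed at 0 in every sample.

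Of 11 other HLH repressors, 6 were tested, with 0 called higher and 2 lower. BHLHE40, a stress- and clock-linked repressor, fell from 54.4, 55.5 and 51.4 FPKM in shControl to 31.4, 28.5 and 36.1 FPKM in shZnf148 (-0.74, adjusted p = 0.0118). HES4 fell from 5.37 ± 1.10 to 2.84 ± 0.774 FPKM (SD, n = 3 each; -0.74, adjusted p = 0.0465). HES1, a Notch target, was 5.86 ± 1.73 and 8.73 ± 0.945 FPKM (SD, n = 3 each; 0.53, adjusted p = 0.108). The median log2 fold change of the 6 rows was -0.42, against 0.006 over all rows, and 2 of them were above 0. The medians of the other lists lay between -0.23 and 0.15, and nothing is read from that of this short list.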

How the data were processed

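The authors deposited 1 table of normalised FPKM values with 1 column per sample, and 0 columns were left unused. The submitters' processing notes name bcl2fastq 2.17.1.14, TopHat2 2.0.14, Cufflinks 2.2.1, Cuffnorm 2.2.1 and the builds hg18 and hg19, whereas the study's methods name Salmon, GRCh38 and DESeq2. Which of these made the FPKM values, and with which annotation, is not given in the sources used here. The table holds no coordinates, so those printed come from GENCODE release 44 and RefSeq (GRCh38). Read counts could not be had, and the precision of low values is unknown.

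Groups were taken from the sample titles. No pair of libraries was identical, and Pearson correlations between replicates across rows were 0.949 to 0.961. Nothing says that replicates were separate cultures, so errors may be technical.

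The 11777 rows whose mean reached 1 FPKM were put on the log2(FPKM + 1) scale and compared between hairpins by limma (3.58.1, R 4.3.3), using its trend option and no covariate, and p-values were adjusted over these rows by Benjamini-Hochberg. Calls needed more than 1.5-fold as well as an adjusted p under 0.05. The fit was tested on simulated data. Python 3.11.15 was used elsewhere.

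The members and lists were chosen with earlier results of these data known. The genes named were the members, the called rows of each list and its 2 rows with the highest mean, and the 3 nearest profiles of each member, of which 1 each for ID1 and ID3 is not reported here. Other genes are named as chosen after their values were seen, or as listed at 0. Alternatives covered the pseudocount, filter, scaling, replicate block, variance trend, rows of 1 symbol, and leaving out each sample.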

Additional observations from a re-analysis of the deposited data

How the results depend on the processing

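Under all 15 alternatives run, the log2 fold change lay between 0.61 and 0.84 for ID1 and between 0.66 and 1.01 for ID3. It lay between -0.20 and -0.11 for TCF3 and between -0.08 and 0.02 for TCF12. The shift of ID3 to 0.66, without shZnf148 replicate 2, was larger than its standard error of 0.18. ID2 moved most with pseudocounts of 0.1 FPKM (1.83) and 5 FPKM (0.56). The counts of calls were less stable. TCF12 changed sign, between -0.08 and 0.02, with 1 sample left out. So did CDKN1A, between -0.27 and 0.017, with values above 0 without shZnf148 replicate 1 or 3, and SMAD5, between -0.10 and 0.13, with values below 0 without replicate 1 of either group. Over all rows, 216 were called higher and 431 lower. A pseudocount of 5 FPKM gave 76 and 204. With 1 sample left out, the counts ranged from 3 to 209 and from 19 to 393. For the lists, 2 rows were called higher and 5 lower, and the counts were 1 and 2 with no filter and 1 and 1 at a mean of at least 5 FPKM. A pseudocount of 0.1 FPKM gave 8 lower and one of 5 FPKM gave 2 lower. With 1 sample left out, they ranged from 0 to 2 and from 0 to 6, and the members called from 0 to 3. The filter changes which rows are tested; the cause of the other moves was not tested.

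A replicate block gave 99 rows called higher and 216 lower, with 1 and 3 in the lists and 1 member, ID2. That gene passed the filter on low values only through shZnf148. Across rows, samples of the same number deviated from their groups with correlations of 0.001, -0.088 and 0.030 for replicates 1, 2 and 3. Only shZnf148 replicate 3 correlated best with the sample of its own number in the other group. No shared deviation by number was seen, but these values cannot tell whether samples of the same number were handled together.

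The mean ID to E-protein ratio was 1.05 in shControl and 1.88 in shZnf148 with geometric means, against 2.25 and 4.32 with sums. It ranged from 2.13 to 2.38 and from 3.88 to 4.55 with 1 sample left out. Levels of ID4, TCF4 and most partners are too low to compare at an unknown depth.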
